A study of Mus musculus with 8 samples.

Results

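The genes described here are 9 parts of the bone morphogenetic protein (BMP) pathway: the ligands Bmp2, Bmp4 and Bmp7, the secreted antagonists Grem1, Nog and Chrd, and the target genes Id1, Id2 and Id3. They were taken by name from 20197 genes that had a value in all 8 RNA-Seq libraries of the series. For each gene, the row of each table whose mm9 position overlapped the annotated gene best was used. All 9 were found in all 8 libraries, and 4 of them (Chrd, Id1, Id2 and Id3) reached the limit of 1 FPKM in at least 2 libraries that was set for testing. FPKM, a fragment count corrected for transcript length and for the size of the library, is the level that the authors computed with Cufflinks.

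The libraries came from NIH3T3, a mouse embryonic fibroblast line, stably transfected with the empty pcDNA3.1 vector (NIH3T3-pc3.1) or with the same vector carrying Esrrb (NIH3T3-Esrrb). Cells from independent transfections were selected with Zeocin and pooled, so each line is a mixed population that carries a vector also in the controls, and whether the samples of a group stem from separate transfections is not stated. Confluent cells were kept for 48 h in medium with 5% serum and a 100-fold dilution of conditioned medium, either from HEK293 cells with an N-terminal sonic hedgehog transgene (Hh-CM) or from HEK293 cells without it (vehicle). The groups, with 2 libraries each, were Control (empty vector, vehicle), Hh-CM (empty vector, Hh-CM), Esrrb (Esrrb vector, vehicle) and Esrrb+Hh-CM (Esrrb vector, Hh-CM). Both media also carry the other products of HEK293 cells. Esrrb, an orphan nuclear receptor, was itself listed at 0 in both libraries labelled Esrrb and in both labelled Esrrb+Hh-CM, and at 0.0281 and 0.0203 FPKM in the Hh-CM libraries. The study checked Esrrb in these lines as protein, by immunoblot. The mRNA values go against the vector labels, which part of the vector transcript the locus would cover is not given in the sources used here, and groups with the Esrrb vector are called below by their labels only. The hedgehog targets followed the medium labels: Gli1 was at 0.0217 to 0.106 FPKM in the 4 vehicle libraries and 26.8 to 34.8 in the 4 with Hh-CM, and Ptch1 at 2.44 to 3.08 and 36.95 to 47.7, while Hhip was listed at 0 in all 8. An exact 0 can be a failed estimate, since 91 genes were at 0 in at least 1 library and at 10 FPKM or more in another. Read depth was recovered from the steps between low values, and relative to Control 1 it was lowest in Esrrb+Hh-CM 2 (0.743) and highest in Hh-CM 2 (1.54). All 12 fibroblast markers were above the limit, with a summed level of 8227 to 8718 FPKM in the empty-vector libraries and 9101 to 10130 in those labelled with the Esrrb vector. The epithelial markers summed to at most 0.0916 FPKM and the muscle markers to at most 0.0145. The endothelial sum was 0.0812 to 0.143 in vehicle and 1.19 to 1.67 with Hh-CM, and 1 of its 4 genes, Tek, passed the limit. The leukocyte sum was 1.09 to 2.79 over the 8 libraries. Within it, Ptprc was below the limit, at 0.225 to 0.265 FPKM in the empty-vector libraries and 0.01325 to 0.059 in those labelled with the Esrrb vector. Cd68, Itgam and Csf1r overlapped between these labels. The part of these differences in the results below was not tested.

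BMP ligands bind paired type I and type II serine/threonine kinase receptors, which phosphorylate Smad1, Smad5 and Smad9, and these enter the nucleus with Smad4. Secreted antagonists such as gremlin, noggin and chordin bind the ligand outside the cell and keep it from its receptors. Id genes are immediate targets of this pathway in many cells, fibroblasts included. Id proteins have a helix-loop-helix but no basic DNA-binding region, and hold E proteins and other bHLH factors off DNA.

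Differences were tested with limma on log2(FPKM + 0.1), and a gene passed the test at a Benjamini-Hochberg adjusted p below 0.05 over all 10284 genes tested. Because of the added 0.1, changes of low genes come out too small. The smallest p of an exact permutation test between 2 and 2 libraries is 0.33, so each call rests on the spread pooled over genes and groups. Several genes are described below as split between groups without overlap, and the share of all genes that split so is not given here. Control libraries enter 3 of the comparisons and the Esrrb+Hh-CM libraries also enter 3, so the comparisons are not independent of each other.

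The ligands were listed at or next to 0 in these libraries. Of all 20197 genes, 5362 were listed at 0 in all 8 libraries, and 3 of these were members. Bmp2 (chr2:133377895-133388621, plus strand, mm9) and Bmp7 (chr2:172693513-172765822, minus strand), both inducers of bone and cartilage, were listed at 0 in all 8 libraries. Bmp4 (chr14:47003195-47010344, minus strand), which patterns mesoderm and many organs, was at 0 and 0.0807 FPKM in Control, 0.0628 and 0.00566 in Hh-CM, 0.0410 and 0.00718 in the libraries labelled Esrrb, and 0.0129 and 0.0595 in those labelled Esrrb+Hh-CM. The groups overlapped throughout, and each level was far below the limit for testing. Bmp4 also overlaps 2 annotated genes on the other strand, Gm15217 by 89 bases and Gm15222 by 1764 bases, and the strand setting of the counting is not given in the sources used here. The 11 other BMP-type ligands examined (Bmp3, Bmp5, Bmp6, Bmp8a, Bmp8b, Bmp10, Bmp15, Gdf2, Gdf5, Gdf6 and Gdf7) did not reach the limit either, and their highest value in any library was 0.521 FPKM for Gdf5, a ligand of joint formation.

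Among the antagonists, Nog (chr11:89161952-89163873, minus strand), which encodes noggin, was listed at 0 in all 8 libraries. Grem1 (chr2:113586321-113598803, minus strand), the gene of the BMP2 and BMP4 antagonist gremlin 1, was low but split by vector label. It was at 0.435 and 0.370 FPKM in Control and at 0.274 and 0.367 in Hh-CM. In the libraries labelled Esrrb it was at 0.0511 and listed at 0, and in those labelled Esrrb+Hh-CM at 0.0459 and listed at 0. All 4 empty-vector libraries were thus above all 4 labelled with the Esrrb vector. The Grem1 values fell on whole multiples of one step per library, within 0.000139 of a step. If a step is read as 1 fragment, they stand for 10 and 10 fragments in Control, 7 and 13 in Hh-CM, 1 and 0 in the libraries labelled Esrrb and 1 and 0 in those labelled Esrrb+Hh-CM. Corrected for depth, the ratio of the summed steps was 0.0596 between the groups labelled Esrrb and Control (1 against 20 steps, 95% interval 0.00144 to 0.373) and 0.0784 between those labelled Esrrb+Hh-CM and Hh-CM (1 against 20 steps, 95% interval 0.00189 to 0.490). These exact intervals cover counting error only. Grem1 was below the limit of the main test. In the limma fit without an FPKM limit, over 14835 genes, it was lower with adjusted p = 0.0125 between Esrrb and Control, where 4.21% of all genes were called lower, and with adjusted p = 0.0160 between Esrrb+Hh-CM and Hh-CM, where 4.56% were. Hh-CM against Control gave a log2 difference of -0.26 ± 0.28 (SE, n = 2 libraries per group, limma adjusted p = 0.650), with a 95% interval of -0.97 to 0.44. The row used leaves out most of the annotated 3' untranslated region of Grem1.

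Of the antagonists, Chrd alone reached the limit for testing. Chrd (chr16:20733200-20742457, plus strand) encodes chordin, which binds BMP2, BMP4 and BMP7 and is cut by BMP1-type proteases. It was at 2.42 and 2.66 FPKM in Control, 4.10 and 5.83 in Hh-CM, 3.77 and 2.93 in the libraries labelled Esrrb, and 9.74 and 3.15 in those labelled Esrrb+Hh-CM. The Hh-CM libraries were above both Control libraries, but the Esrrb+Hh-CM libraries lay on either side of them. No comparison of Chrd passed the test. The log2 fold change was 0.92 ± 0.51 (SE, n = 2 libraries per group, limma adjusted p = 0.283) for Hh-CM against Control and 1.10 ± 0.51 (adjusted p = 0.149) for Esrrb+Hh-CM against Control. One library decided the second value: without Esrrb+Hh-CM 2 it was 1.90 (adjusted p = 0.00854) and without Esrrb+Hh-CM 1 it was 0.30 (adjusted p = 0.449). The log2 fold change between Esrrb+Hh-CM and Esrrb was 0.72 (adjusted p = 0.367), and became 1.52 (adjusted p = 0.0210) and -0.08 (adjusted p = 0.881) in the same order. Leaving out Esrrb+Hh-CM 1 or 2 also brought Hh-CM against Control to adjusted p = 0.04995 and 0.0489, with the fold change as before. Chrd overlaps Thpo on the other strand by 1385 bases. The neighbouring Thpo locus was listed at 0 in 7 libraries and at 0.375 FPKM in Esrrb 1.

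The Id genes were the members with the highest levels, Id3 first. In Control, the mean was 29.6 ± 1.83 FPKM (SD, n = 2) for Id3, 9.94 ± 0.927 for Id2 and 7.87 ± 0.498 for Id1, and the levels of Id2 and Id1 did not overlap. The promoters of Id2, Id3 and Grem1, the members whose values split by group most clearly, are shown as the 250 bases before the RefSeq start (GRCm38.p6, written 5' to 3' on the gene's strand). Capitals mark 2 sequences known to be bound by Smads, the GC-rich element GGCGCC and the Smad box CAGAC, searched on both strands and shown as the reverse complement where they lie on the other one.
Id2: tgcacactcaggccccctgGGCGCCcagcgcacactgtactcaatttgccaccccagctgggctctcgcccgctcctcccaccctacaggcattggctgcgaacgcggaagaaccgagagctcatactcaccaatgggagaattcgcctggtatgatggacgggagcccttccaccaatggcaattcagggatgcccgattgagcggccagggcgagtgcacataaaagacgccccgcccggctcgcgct
Id3: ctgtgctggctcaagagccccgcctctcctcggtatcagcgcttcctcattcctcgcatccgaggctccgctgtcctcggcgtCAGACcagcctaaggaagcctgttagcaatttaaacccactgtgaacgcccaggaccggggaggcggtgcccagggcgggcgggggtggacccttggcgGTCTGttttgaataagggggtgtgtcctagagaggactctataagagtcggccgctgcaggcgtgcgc
Grem1: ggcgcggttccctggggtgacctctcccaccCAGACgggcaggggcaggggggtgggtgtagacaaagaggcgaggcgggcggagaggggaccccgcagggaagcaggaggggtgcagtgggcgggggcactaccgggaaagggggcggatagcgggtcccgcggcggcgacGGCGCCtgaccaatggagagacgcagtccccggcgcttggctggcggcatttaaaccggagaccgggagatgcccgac
The Id2 window is chr12:25096093-25096342 (minus strand), the Id3 window chr4:136143572-136143821 (plus strand) and the Grem1 window chr2:113758649-113758898 (minus strand). Id2 held GGCGCC from 231 bases before the start, and Id3 held the Smad box from 167 and, on the other strand, from 68 bases before it. Grem1 held both, GGCGCC from 78 and CAGAC from 219 bases before the start. In the windows of the other 2 members matched in the RefSeq table, Chrd held GGCGCC at 203 bases and Bmp4 held neither. Of 32851 windows of the same length over all genes, 9.59% held GGCGCC and 42.2% the Smad box, so the Smad box is common and GGCGCC less so. The ERR half-site AAGGTCA, in 4.08% of all windows, and the Gli sequence TGGGTGGTC, in 0.225%, both searched on both strands, were in none of these 5 windows. Base composition differed too, with 62.8% G and C in the Id2 and Id3 windows, 63.2% in Bmp4, 72.0% in Grem1 and 78.0% in Chrd. The median over all windows was 52.4%. These matches are descriptions of the sequence and show no binding.

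**Figure D1:**
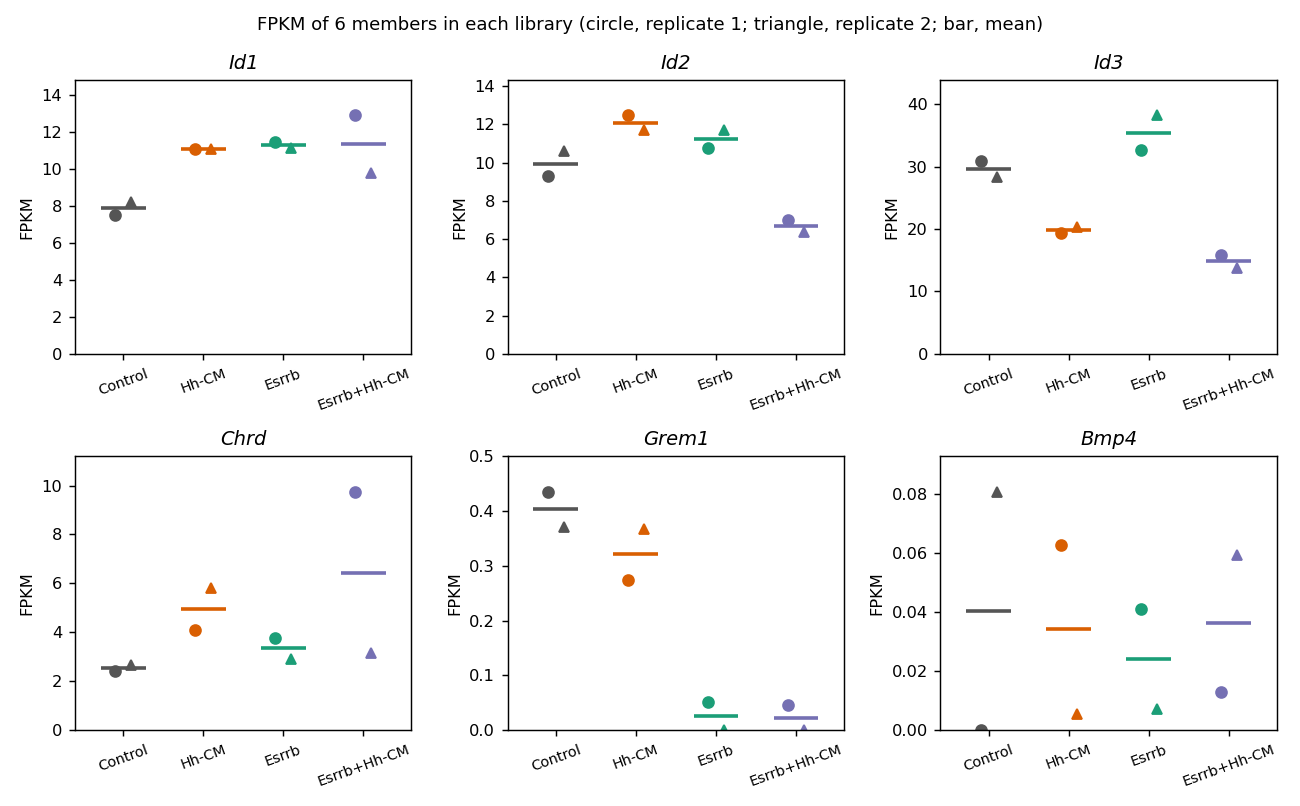
FPKM (y axis, linear from 0) of 6 members in each library by group (x axis), with a circle for replicate 1, a triangle for replicate 2 and a bar for the mean of 2. Id2 is lowest in both libraries labelled Esrrb+Hh-CM, Id3 is lower in all 4 Hh-CM-treated libraries than in the 4 vehicle libraries, and Grem1 is lower in all 4 libraries labelled with the Esrrb vector.

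Id3 followed the medium. Id3 (chr4:135699412-135701670, plus strand), an inhibitor of E proteins, was at 30.9 and 28.3 FPKM in Control, 19.4 and 20.3 in Hh-CM, 32.6 and 38.2 in the libraries labelled Esrrb, and 15.9 and 13.8 in those labelled Esrrb+Hh-CM. Every Hh-CM-treated library was thus below every vehicle library, with both vector labels. In these bulk samples, fewer cells with the transcript and less transcript per cell cannot be told apart. Id3 fell with Hh-CM in the empty-vector cells, by 0.57 ± 0.10 on the log2 scale (SE, n = 2 libraries per group, limma adjusted p = 0.0162), which is 1.49-fold. It also fell with Hh-CM in the libraries labelled with the Esrrb vector, by 1.25 ± 0.10 (adjusted p = 0.000658) or 2.38-fold. Among the pairwise differences of members that passed, this was the single one that also reached 1 in size on the log2 scale, as 4.81% of all tested genes did in this comparison. The difference between the 2 responses, the interaction, was -0.67 ± 0.15 and did not pass (adjusted p = 0.0912), with a 95% interval of -1.04 to -0.31 before adjustment. Against Control, Id3 was lower in Esrrb+Hh-CM by 0.99 on the log2 scale (fold 1.99, adjusted p = 0.00116), while the value for Esrrb against Control was 0.26 (adjusted p = 0.154). Esrrb+Hh-CM against Hh-CM gave -0.42 ± 0.10 (adjusted p = 0.0421). The falls in Esrrb+Hh-CM against Esrrb and against Control passed under all 11 alternatives other than leaving 1 library out. They kept their direction when any 1 library was left out. The fall with Hh-CM in the empty-vector cells did not pass without Control 1 (adjusted p = 0.0842), Hh-CM 1 (0.0830) or Hh-CM 2 (0.0627). Esrrb+Hh-CM against Hh-CM did not pass when any library other than Esrrb 1 or 2 was left out, with adjusted p from 0.0515 to 0.146.

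Id2 was lowest in the libraries labelled Esrrb+Hh-CM. Id2 (chr12:25778666-25780957, minus strand), which also binds the retinoblastoma protein, was at 9.29 and 10.6 FPKM in Control, 12.5 and 11.7 in Hh-CM, 10.8 and 11.7 in the libraries labelled Esrrb, and 7.02 and 6.37 in those labelled Esrrb+Hh-CM. Both libraries labelled Esrrb+Hh-CM were below the other 6. Id2 was lower in Esrrb+Hh-CM than in Esrrb by 0.74 ± 0.09 on the log2 scale (SE, n = 2 libraries per group, limma adjusted p = 0.00305) or 1.67-fold, than in Hh-CM by 0.84 ± 0.09 (adjusted p = 0.00414) or 1.79-fold, and than in Control by 0.56 ± 0.09 (adjusted p = 0.00632) or 1.48-fold. These calls passed under all 11 alternatives other than leaving 1 library out. They kept their direction when any 1 library was left out. Each treatment by itself gave values above Control that did not pass, 0.28 for Hh-CM (adjusted p = 0.0957) and 0.18 for Esrrb (adjusted p = 0.252). The response of Id2 to Hh-CM differed by vector label, with an interaction of -1.02 ± 0.13 (adjusted p = 0.0326), where 1.35% of all tested genes passed. The interaction kept its direction but missed the threshold when any library but Control 2 was left out, with adjusted p from 0.0594 to 0.0971 without each of the other 7, and 0.0442 without Control 2.

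Id1 was lowest in the Control libraries. Id1 (chr2:152561987-152563146, plus strand), the member most often used as a readout of BMP signaling, was at 7.51 and 8.22 FPKM in Control, 11.06 and 11.09 in Hh-CM, 11.4 and 11.2 in the libraries labelled Esrrb, and 12.9 and 9.76 in those labelled Esrrb+Hh-CM. The other 6 libraries were all above both Control libraries, and overlapped each other. Id1 rose in Esrrb against Control by 0.52 ± 0.13 on the log2 scale (SE, n = 2 libraries per group, limma adjusted p = 0.0482) or 1.43-fold, and in Esrrb+Hh-CM against Control by 0.51 ± 0.13 (adjusted p = 0.0291) or 1.42-fold. For Hh-CM against Control the value was 0.49 ± 0.13, just outside the threshold (adjusted p = 0.0531). Under the Esrrb label, Hh-CM gave a log2 difference of -0.01 with a 95% interval of -0.33 to 0.31, and the interaction of -0.50 ± 0.18 did not pass (adjusted p = 0.238). These calls of Id1 are close to the threshold. Both calls were lost without either Control library or any 1 library of the Hh-CM or Esrrb groups, with adjusted p from 0.0823 to 0.183 for Esrrb and from 0.0511 to 0.123 for Esrrb+Hh-CM against Control. Without Esrrb+Hh-CM 1 or 2, in contrast, Hh-CM against Control passed (adjusted p = 0.00987 and 0.00967).

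**Figure D2:**
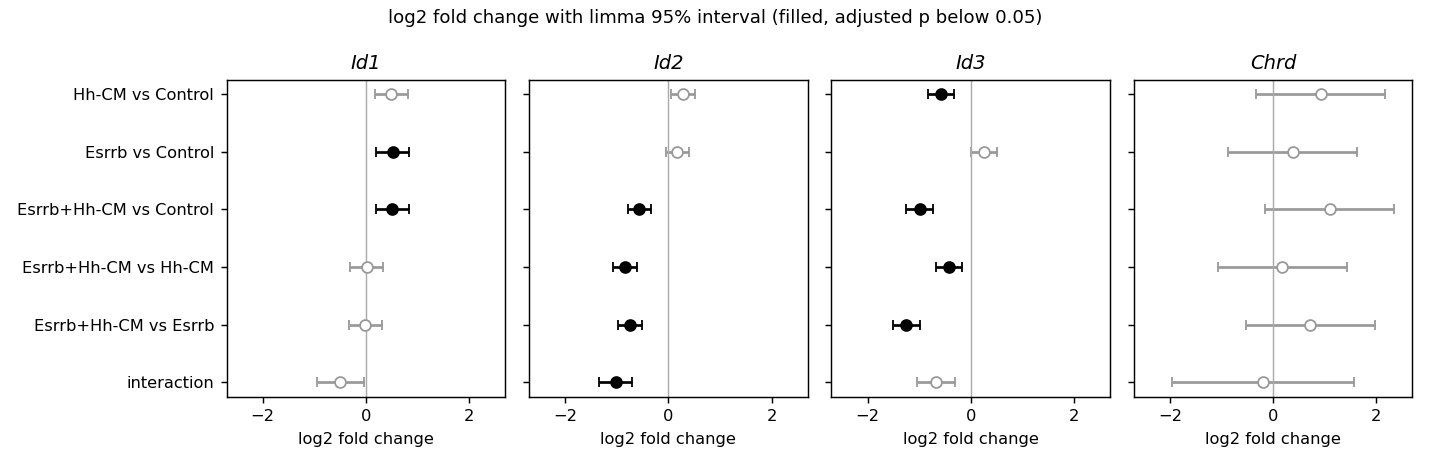
Log2 fold change (x axis, on the log2(FPKM + 0.1) scale) of the 4 tested members in the 5 comparisons and the interaction (y axis), with limma 95% intervals as bars and filled points where the adjusted p is below 0.05. Id3 and Id2 are below 0 in all 3 comparisons of Esrrb+Hh-CM, Id1 is above 0 in all 3 against Control, and the Chrd intervals all include 0.

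Counted over the 4 tested members, 1 passed lower in Hh-CM against Control (Id3), where 7.53% of all tested genes passed lower. For Esrrb against Control 1 passed higher (Id1), beside 10.2% of all genes. For Esrrb+Hh-CM against Control 1 passed higher (Id1) and 2 lower (Id2 and Id3), beside 23.0% higher and 12.0% lower. Both Id2 and Id3 passed lower in Esrrb+Hh-CM against Hh-CM, beside 6.52% of all genes, and against Esrrb, beside 9.51%. The median log2 fold change of the 4 was 0.39, 0.32, -0.03, -0.20 and -0.37 in these 5 comparisons in turn, against 0.04, 0.05, 0.08, 0.05 and 0.04 over all tested genes. The other 5 members were not tested, so these counts cover Chrd and the Id genes alone.

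Since the Id genes moved differently, their proportions within a library changed between groups. The Id1 to Id2 ratio of FPKM was 0.809 and 0.776 in Control, 0.888 and 0.946 in Hh-CM, 1.06 and 0.952 in the libraries labelled Esrrb, and 1.83 and 1.53 in those labelled Esrrb+Hh-CM. The ratio was highest in both libraries of the last group. The Id3 to Id1 ratio was 4.11 and 3.44 in Control and 2.86 and 3.42 in the libraries labelled Esrrb, and 1.75 and 1.83 in Hh-CM and 1.23 and 1.41 in those labelled Esrrb+Hh-CM. Vehicle and Hh-CM libraries did not overlap in this ratio. The sum of the Id genes was 47.7 and 47.1 FPKM in Control, 42.9 and 43.1 in Hh-CM, 54.8 and 61.0 in the libraries labelled Esrrb and 35.8 and 29.9 in those labelled Esrrb+Hh-CM, with no overlap between groups.

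**Figure D3:**
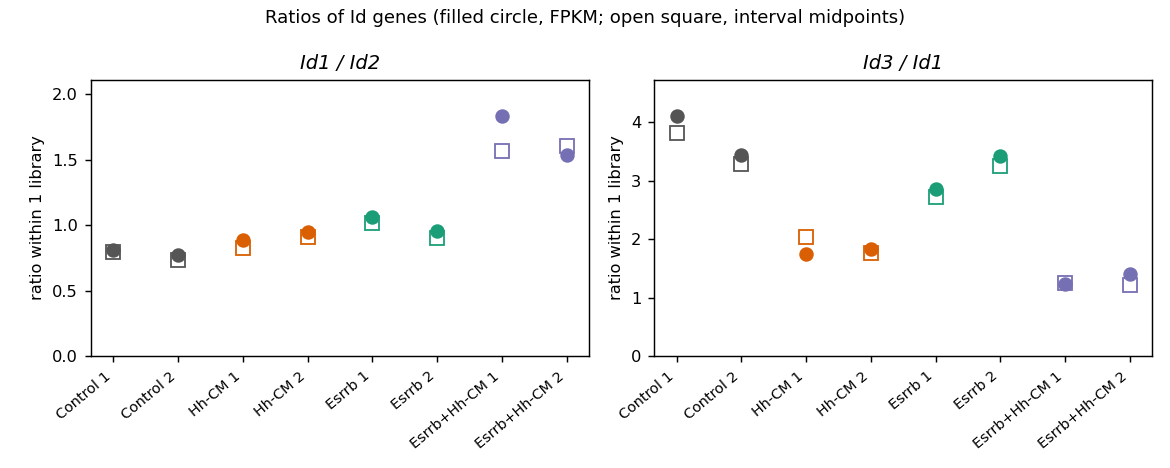
Ratios of FPKM within each library (x axis, 8 libraries; y axis, ratio from 0), Id1 to Id2 on the left and Id3 to Id1 on the right, from the deposited FPKM (filled circles) and from the midpoints of the Cufflinks intervals (open squares). By either measure, Id1 to Id2 is highest in both libraries labelled Esrrb+Hh-CM, and Id3 to Id1 is lower in all 4 Hh-CM-treated libraries than in the 4 vehicle libraries.

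The Id values depend in part on the kind of row they came from. Cufflinks gave 21 of the 24 Id values to a RefSeq locus and 3 to a locus it had assembled, which were Id3 in Hh-CM 1, Id2 in Esrrb+Hh-CM 1 and Id1 in Esrrb+Hh-CM 2. In RefSeq rows the FPKM was 1.05 to 1.22 times the midpoint of its own 95% interval, and 5 values lay outside that interval, whereas in the assembled rows FPKM and midpoint were equal to within rounding. Over all loci, 5.27% to 7.75% of FPKM values per library lay outside their interval. With the midpoint in place of FPKM, Id3 in Hh-CM against Control was -0.43 and no longer passed (adjusted p = 0.0771), nor did Id3 in Esrrb+Hh-CM against Hh-CM (adjusted p = 0.0514) or the Id2 interaction (adjusted p = 0.0935). Id1 in Hh-CM against Control passed in that setting (adjusted p = 0.0143). The lower Id2 and Id3 of Esrrb+Hh-CM against Esrrb and Control remained past the threshold.

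**Figure D4:**
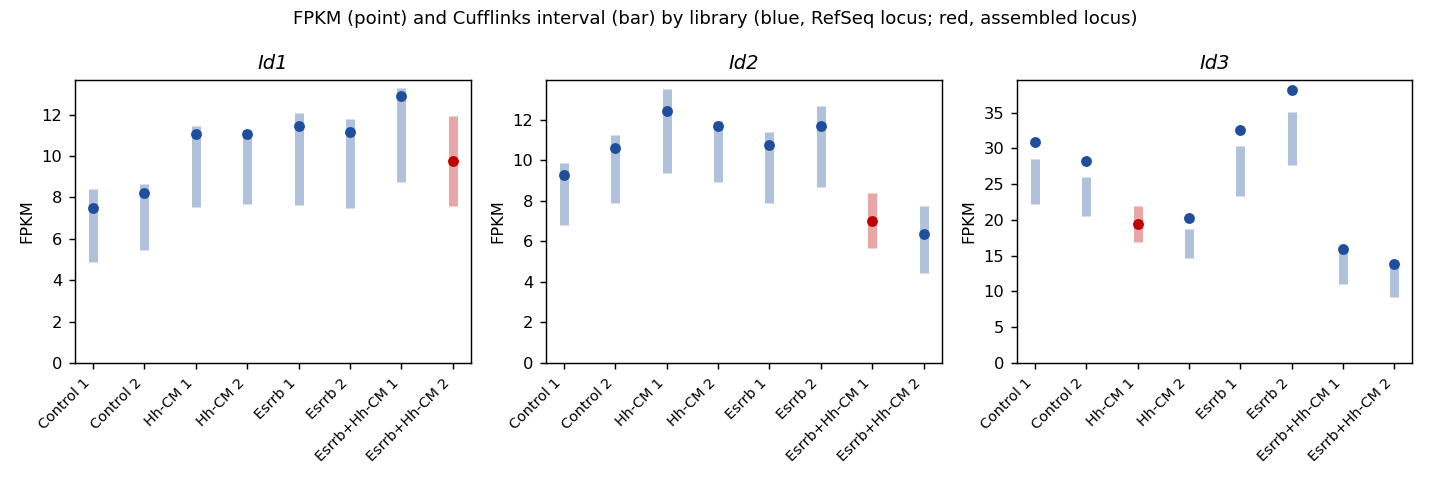
FPKM (points, y axis from 0) and 95% Cufflinks interval (bars) of Id1, Id2 and Id3 in each library (x axis), blue for rows of a RefSeq locus and red for the 3 rows of an assembled locus. Points in blue sit high in or above their bars, and the red points sit at the middle of theirs.

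Other parts of the pathway were read from 65 further genes, of which 35 were tested. In Hh-CM against Control 5 passed higher and 4 lower, beside 10.5% and 7.53% of all tested genes. In Esrrb against Control 5 and 1 did, beside 10.2% and 6.16%, and in Esrrb+Hh-CM against Control 9 and 9, beside 23.0% and 12.0%. In Esrrb+Hh-CM against Hh-CM 4 and 5 did, beside 12.4% and 6.52%, and against Esrrb 5 and 8, beside 13.9% and 9.51%. Their median log2 fold changes were 0.05, 0.03, 0.09, -0.01 and 0.00, against the medians over all genes given above. No gene of the list passed in the interaction by limma, beside 1.35% of all tested genes. An unadjusted p below 0.05 was reached by 7, and the share of all genes at that limit is not given here. Of the genes named below, Fst and Smad7 met the rule for naming, which was to pass the test and reach 1 in size on the log2 scale, Nbl1 and Twist1 that of likeness to a member, and the others were chosen after their values were seen.

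Of 7 receptors on the list, Bmpr1b, a type I receptor, was listed at 0 in all 8 libraries and 6 were tested. Bmpr1a, another type I receptor, was at 29.3 to 32.95 FPKM in the 8 libraries, and Bmpr2, a type II receptor, at 9.62 to 12.5. Acvrl1, a type I receptor known from endothelium, was low, at 0.649 to 1.98 FPKM, and its log2 difference of 0.84 in Esrrb against Control did not pass (adjusted p = 0.0988). Of the 6, none passed in Hh-CM against Control by limma, beside 10.5% higher and 7.53% lower of all tested genes. An unadjusted p below 0.05 was reached by 2. Acvr1, a further type I receptor, was the single receptor that passed in any comparison, lower in Esrrb+Hh-CM against Control by 0.28 on the log2 scale (adjusted p = 0.0180) and against Esrrb by 0.31 (adjusted p = 0.0179). Of the co-receptors, Rgma, a repulsive guidance molecule that binds BMPs, passed higher in all 5 comparisons. It was at 30.6 and 32.9 FPKM in Control, 43.6 and 42.5 in Hh-CM, 37.5 and 38.5 in the libraries labelled Esrrb, and 49.8 and 52.2 in those labelled Esrrb+Hh-CM, with no overlap between groups.

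Among the 9 other antagonists and modulators tested, the widest change that passed the test was that of Fst, the gene of follistatin, which binds activins and some BMPs. Fst was at 11.7 and 12.6 FPKM in Control, 9.45 and 11.6 in Hh-CM, 9.29 and 7.94 in the libraries labelled Esrrb, and 3.43 and 3.25 in those labelled Esrrb+Hh-CM. As with Id2, the last 2 libraries were below the other 6. Fst fell in Esrrb+Hh-CM against Control by 1.83 ± 0.13 on the log2 scale (SE, n = 2 libraries per group, limma adjusted p = 0.000236), against Hh-CM by 1.62 (adjusted p = 0.00137) and against Esrrb by 1.34 (adjusted p = 0.000994). Over all tested genes, 6.21%, 1.97% and 4.81% passed with at least 1 in size on the log2 scale in these 3 comparisons. Its interaction was -1.13 ± 0.18 (adjusted p = 0.0524). Dand5, another secreted antagonist, was at 3.02 to 4.13 FPKM in 6 libraries and at 32.8 and 35.8 in Control 2 and Esrrb+Hh-CM 1, a difference within groups, and no comparison of it passed. Bmp1, the protease that cuts chordin, was at 25.5 to 27.4 FPKM in the empty-vector libraries and 34.5 to 39.8 in those labelled with the Esrrb vector, and it rose in Esrrb against Control by 0.58 on the log2 scale (adjusted p = 0.00388) and in Esrrb+Hh-CM against Hh-CM by 0.44 (adjusted p = 0.00844).

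Of 7 Smads and Smurfs tested, Smad7 was the one that passed with at least 1 in size on the log2 scale. Smad7 is an inhibitory Smad and itself a target of this pathway and of TGF-β. It was at 2.12 and 3.04 FPKM in Control, 1.22 and 1.18 in Hh-CM, 1.87 and 2.68 in the libraries labelled Esrrb, and 0.747 and 0.615 in those labelled Esrrb+Hh-CM. Like Id3, Smad7 was lower in every Hh-CM-treated library than in every vehicle library. It fell with Hh-CM in the empty-vector cells by 1.02 ± 0.25 on the log2 scale (SE, n = 2 libraries per group, limma adjusted p = 0.0405) and in the libraries labelled with the Esrrb vector by 1.59 ± 0.25 (adjusted p = 0.00714). In the first comparison 2.76% of all tested genes passed with at least 1 in size. That call was lost when any library other than Esrrb 1 or 2 was left out, with adjusted p from 0.0551 to 0.167, and the second was not lost without any 1 library. Smad9 was below the limit for testing, at 0.326 to 0.510 FPKM in the vehicle libraries and 0.6625 to 0.784 in those with Hh-CM. In the fit without an FPKM limit, Smad9 passed higher in Hh-CM against Control. Smad6 gave a log2 fold change of 0.55 in this comparison and did not pass (limma adjusted p = 0.281). Of the 3 other BMP target genes tested, Runx2, the bone transcription factor, passed lower in Esrrb+Hh-CM against Control (log2 fold change -0.38, adjusted p = 0.0318). Id4, the remaining gene of the Id family, was at 0.584 to 2.12 FPKM and did not pass in any comparison. Atoh8, also among these targets, was at 8.51 and 5.22 FPKM in Control and 10.6 and 11.8 in Hh-CM. It was at 6.17 and 6.63 in the libraries labelled Esrrb and 10.3 and 9.58 in those labelled Esrrb+Hh-CM. Every Hh-CM-treated library was thus above every vehicle library. The log2 fold change of Atoh8 in Hh-CM against Control, 0.74, did not pass (limma adjusted p = 0.0693).

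All 5 bHLH partners of Id proteins on the list were tested. Twist2 rose and Twist1 fell with Hh-CM in the empty-vector cells. Twist1, which represses osteoblast differentiation, was at 38.9 and 38.5 FPKM in Control, 29.97 and 29.2 in Hh-CM, 38.7 and 41.3 in the libraries labelled Esrrb, and 26.2 and 25.2 in those labelled Esrrb+Hh-CM. Twist2 was at 34.2 and 34.4, 64.6 and 63.2, 48.6 and 50.5, and 65.1 and 54.3 FPKM in the same groups. Their log2 fold changes for Hh-CM against Control were -0.39 (limma adjusted p = 0.00394) for Twist1 and 0.90 (adjusted p = 0.00167) for Twist2. The E protein gene Tcf4 was at 20.6 and 20.1 FPKM in Control and 14.3 and 14.4 in Hh-CM, and fell by 0.50 on the log2 scale (adjusted p = 0.00148).

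**Figure D5:**
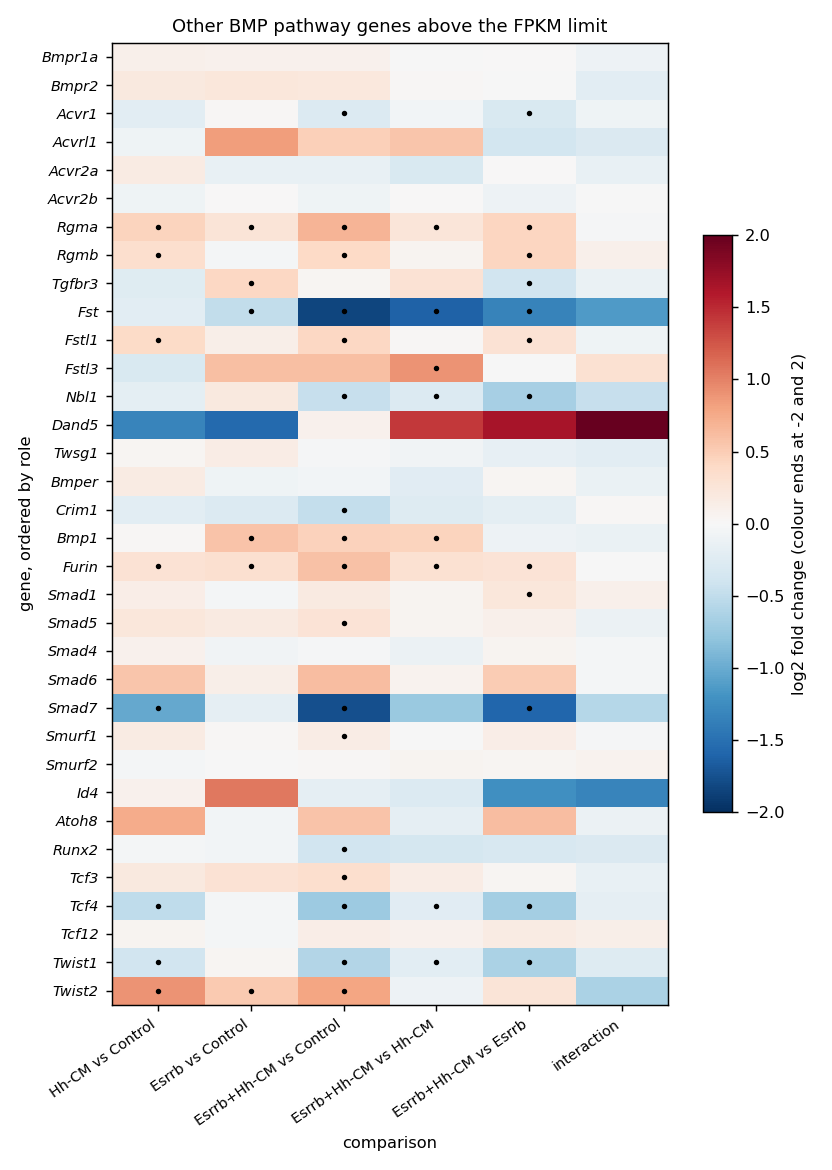
Log2 fold change (colour, ends at -2 and 2) of the other pathway genes above the FPKM limit (rows, ordered by role, 1 tested gene not shown) in the 5 comparisons and the interaction (columns), with a dot where the adjusted p is below 0.05. Fst and Smad7 are the darkest blue rows with dots, Rgma has dots in all 5 comparisons, Dand5 has strong colour without a dot, and the interaction column has no dot.

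The tested genes whose pattern over the 8 libraries was most like that of each member were listed by Pearson's r of log2(FPKM + 0.1), as a description over points that share groups. For Id3 they were Nbl1 (r = 0.987), the gene of a further secreted BMP antagonist, Twist1 (0.987) and Fam107b (0.986). Nbl1 was at 59.0 and 54.5 FPKM in Control, 49.5 and 49.3 in Hh-CM, 63.0 and 66.7 in the libraries labelled Esrrb, and 43.4 and 38.9 in those labelled Esrrb+Hh-CM. For Id2 they included Vps35 (0.968) and Sepp1 (0.957). They were for Id1 Impad1 (0.9895), Zfp580 (0.984) and Atg13 (0.965), and for Chrd Limd2 (0.967), Zfp846 (0.965) and Tiprl (0.963). No Id gene was among the 3 closest to another: r was 0.63 between Id2 and Id3, -0.30 between Id1 and Id3 and 0.01 between Id1 and Id2.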

How the data were processed

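Poly(A) RNA of the 8 samples (4 groups of 2) was sequenced as stranded libraries in one lane. The authors trimmed the reads, used TopHat2 with Bowtie2 for alignment to mm9, and ran Cufflinks on each sample with reference-guided assembly (versions not given in the sources used here). The deposited tables give an FPKM value and its interval bounds, also in FPKM, for each locus, with no counts. The tables give no depth per library in reads, and relative depth came from the steps between low values. The authors call the samples of a condition biological replicates, without saying whether these are separate transfections. The p-values rest only on the spread between such samples, pooled over genes and groups.

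Each gene (Gencode vM1, mm9) was given the locus with the highest overlap (Jaccard of at least 0.5), 1 per library. limma 3.58.1 in R 4.3.3 was fitted to log2(FPKM + 0.1) of all 8 libraries, with group means, a variance trend and genes of at least 1 FPKM in at least 2 libraries. Benjamini-Hochberg adjustment ran over all genes within a comparison. The code was tested on simulated data. The summary used Python 3.11.15 and pandas 2.3.3. Promoters came from RefSeq (GRCm38.p6), where 5 of the 9 members were matched. The members and gene lists were chosen with earlier results of these data known. Named were all 9 members, listed pathway genes that passed at 0.05 and changed by at least 1 on the log2 scale (or passed the interaction), and the 3 genes most like each tested member; 2 genes that this rule or the lists hold are not reported here by name. Alternatives were other pseudocounts (1 and 0.001), other FPKM limits, the compared groups alone, a replicate block, rescaled FPKM, no variance trend, summed loci, an overlap of at least 0.8, each library left out and, added after seeing the data, the interval midpoint in place of FPKM.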

Additional observations from a re-analysis of the deposited data

Results flagged for a closer look

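The Id2 interaction, the difference between the Hh-CM responses of the 2 vector labels, was -1.02 (limma adjusted p = 0.0326). It is listed because it passed a test of the difference itself in the main fit. It did not pass with the replicate block (limma adjusted p = 0.0849) or with the interval midpoint (0.0935).

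A second locus at chr2:113586906-113587691 (mm9), inside the annotated 3' untranslated region of Grem1 but outside the row used for the gene, was at 0.764 FPKM in Hh-CM 2 (Cufflinks interval 0.310 to 1.19) and at 0.126 FPKM in Esrrb 1 (0 to 0.280). It was not listed as a locus of its own in the Control libraries or in the other 4.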

How the results depend on the processing

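Of 672 log2 fold changes of single genes under an alternative, 583 kept their direction and side of the threshold, 63 no longer passed, 14 came to pass and 12 changed sign. The single genes were Chrd, Id1, Id2, Id3, Fst and Smad7. Leaving out a library from outside a comparison could change the estimate of the spread but not the fold change. Of the members, 1 passed in Hh-CM against Control, and 2 with a limit of 1 FPKM in every sample, with the compared groups alone and with an overlap of at least 0.8. In Esrrb against Control 1 passed, and 0 with the rescaled FPKM and without the variance trend. In Esrrb+Hh-CM against Hh-CM 2 passed, and 1 with the compared groups alone, without the variance trend and with the interval midpoint. Without an FPKM limit these 2 counts were as before but Grem1 took the place of Id1 (adjusted p = 0.0660) in the first and of Id3 (adjusted p = 0.0553) in the second. In the interaction 1 passed, and 0 with the midpoint. Of the other pathway genes, 6 passed in Esrrb against Control, and 3 with the compared groups alone or the midpoint. Over all tested genes, too, fewer passed in that comparison under both settings than in the main fit. In Esrrb+Hh-CM against Hh-CM 9 of the other pathway genes passed, and 4 with the compared groups alone. In the interaction 0 of these genes passed, and 2 with rescaled FPKM. That count was 1 with the limit in every sample or an overlap of at least 0.8. With 1 library left out, the remaining one of its group being assumed to vary like the others, the members that passed numbered 0 to 3 in Hh-CM against Control, 0 to 1 in Esrrb against Control, 1 to 2 in Esrrb+Hh-CM against Hh-CM and 0 to 1 in the interaction, and the other pathway genes 5 to 9, 1 to 6, 2 to 9 and 0 to 1. Over all tested genes, too, fewer passed in Hh-CM against Control without any 1 Control or Hh-CM library than in the main fit. The same held in Esrrb against Control without any 1 Control or Esrrb library. Changes of sign were confined to differences that had not passed. Id1 in Esrrb+Hh-CM against Hh-CM became -0.031 with rescaled FPKM, and against Esrrb 0.088 with the midpoint. With 1 library left out, these 2 ranged from -0.18 to 0.22 and from -0.21 to 0.19, Smad7 in Esrrb against Control from -0.42 to 0.0746, and Chrd from -0.62 to 0.98 in Esrrb+Hh-CM against Hh-CM, from -0.0762 to 1.52 against Esrrb and from -0.995 to 0.60 in the interaction. The causes of these shifts were not tested.

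Deviations of same-numbered libraries from their group means correlated at -0.0596 to 0.0623 over 6 pairs of groups. No strong shared effect of the replicate number was thus seen. Whether the samples were paired is not stated, and these values cannot decide it. With the replicate block, 0 members passed in Esrrb against Control, 1 in Esrrb+Hh-CM against Hh-CM and 0 in the interaction.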
